A study of Mus musculus with 48 samples.

Results

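The nPM response of APOE3 females was measured by RNAseq of the cerebral cortex of 8 mice, 4 exposed to nPM and 4 to filtered air. Its members are the genes with reads in all 8 mice, judged by a deposited value over 1.5 times the column minimum, which held for 16380 of the 18939 genes in the table of the APOE-TR exposure. Of the 2559 other genes, 99 had no read in any of the 8 mice. Another 11 had reads in every nPM mouse and in no control, and 2 had reads in every control and in no nPM mouse.

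All 8 mice were females of the E3 line of ApoE-TR mice, a targeted replacement that puts the human APOE3 gene in place of mouse Apoe in the whole body. They inhaled re-aerosolized nPM, which is nanoscale particulate matter from city air, or filtered air for 5 hours per day on 3 days per week, for 15 weeks. The labels give an age of 6 months and do not name its time point. The tissue was the total cortex of mice perfused with saline, and each column came from 1 mouse. Controls are called 52, 61, 63 and F6 and nPM mice 55, 59, 67 and 70 after their column names. The animal number of F6 matches no sample label, so that column was placed in its group by the rest of its name. No label ties the mice to a litter or library batch. Responses of other mice are given beside some results and at the end. They are APOE3 males and APOE4 females of the same targeted replacement, exposure and age, and B6 females with mouse Apoe. The B6 females were labelled with an age of 4 months and exposed for 8 weeks, in a separate exposure with another nPM batch.

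Inhaled ultrafine particles are known to provoke oxidative stress and inflammation in the brain. NRF2, the product of Nfe2l2, is a transcription factor that induces antioxidant and detoxifying enzymes, and NFKB, whose subunits include Rela and Nfkb1, induces inflammatory genes. APOE carries lipids between brain cells and is made mainly by astrocytes, while microglia are the resident macrophages that take up debris and particles. In bulk cortex, fewer cells of a type and less RNA per cell cannot be told apart.

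The mice differed among themselves in ways that the exposure did not define. The genes listed held 17.8 to 21.5 M (mega) estimated reads per mouse, with a mean of 19.3 ± 1.49 M in controls and 19.6 ± 1.37 M with nPM (SD, n = 4 each). A first principal component carried 80.5% of the variance between the 8 mice. Its scores were −19.6, 83.3, −10.2 and 54.6 in controls 52, 61, 63 and F6, and 7.81, −44.6, −46.1 and −25.3 in nPM mice 55, 59, 67 and 70. Controls 61 and F6 stood apart from the other 6 mice, and nPM mouse 55 scored above controls 52 and 63. The median over genes of the SD between mice (log2) was 0.283 in these controls, 0.193 in these nPM mice, and 0.0947 to 0.138 in the other six APOE-TR groups. With controls 61 and F6 left out it was 0.102 in the remaining controls.

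Transcript length separated the same mice. The length slope, which is the change of a gene's log2 level, relative to its mean over the 8 mice, per doubling of transcript length, was 0.07, −0.34, 0.04 and −0.20 in controls 52, 61, 63 and F6. It was −0.02, 0.17, 0.17 and 0.10 in nPM mice 55, 59, 67 and 70. Among these 8 mice, long transcripts were thus relatively low in controls 61 and F6 and relatively high in nPM mice 59 and 67. Taken relative to the mean over all 32 APOE-TR mice, the slope was −0.114, −0.546, −0.151 and −0.397 in the controls. With nPM it was −0.219, −0.007, −0.011 and −0.082, and in the other 24 mice −0.102 to 0.157. Every control and nPM mouse 55 lay below that range, and nPM mice 59, 67 and 70 lay within it. Genes of the mitochondrial genome took 12.5%, 21.8%, 13.7% and 18.3% of the listed CPM in the controls and 14.9%, 7.79%, 7.67% and 10.3% with nPM, against 7.03% to 10.9% in the other 24 APOE-TR mice. Cytosolic ribosomal protein genes took 1.56% and 1.28% in controls 61 and F6, 0.785% and 0.831% in controls 52 and 63, and 0.559% to 0.975% with nPM. In the other 24 APOE-TR mice they took 0.414% to 0.742%, a range that every control and nPM mouse 55 exceeded. These values moved with the exposure as well as with single mice, and their part in the response was not tested. Beside the counts for all 8 mice, counts are given with the length slope as a covariate and, in an alternative added after their values were seen, without controls 61 and F6. The slope was computed from the levels of these same genes and averaged −0.106 in controls and 0.106 with nPM. A fit with it removes a trend with length by construction, and can remove a response that goes with it. For lists of long or short transcripts, moves of the median toward 0 in that fit were therefore in part set in advance. Over all genes 10.9% rose and 10.1% fell at p under 0.05 with all mice, 2.77% and 4.41% with the covariate, and 2.04% and 2.82% without those controls.

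**Figure D1:**
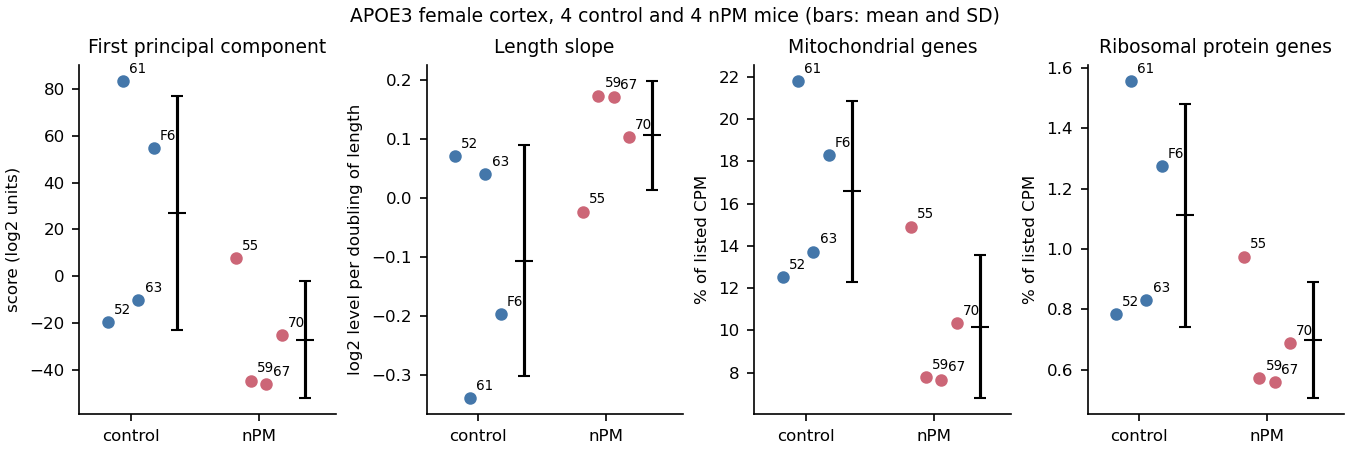
Per-mouse measures in APOE3 female cortex. The panels plot the first principal component score (log2 units), the length slope (log2 level per doubling of length), and the percent of listed CPM in mitochondrial and in ribosomal protein genes, with a point per mouse and bars for the mean and SD (n = 4). Controls 61 and F6 lie at 83.3 and 54.6 on the first component, nPM mice 59 and 67 at −44.6 and −46.1, and controls 52 and 63 lie below nPM mouse 55.

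Labels were checked against genes set by sex and genotype. Xist, the RNA of the inactive X chromosome, was present in all 8 mice, at 90.3 to 910 CPM as deposited in controls and 526 to 736 CPM with nPM. Ddx3y, Kdm5d, Eif2s3y and Uty on the Y chromosome stood at the value of a gene without reads in all 8. Reads assigned to mouse Apoe, which the human gene replaces, amounted to 25.8 ± 5.60 CPM in controls and 18.8 ± 1.92 CPM with nPM (SD, n = 4 each). Markers of neighbouring tissue also differed between mice. The summed level of the 9 striatal markers tested was 1297 CPM in control 52 and 1213 CPM in control 63, against 713 CPM in control 61, 312 CPM in control F6 and 506 to 805 CPM with nPM. Without controls 61 and F6, all 9 striatal markers fell with nPM (median log2 change −1.02), while none of them passed p under 0.05 with all 8 mice (median −0.36). The summed level of 7 choroid plexus markers was 1416 CPM in control F6 and 9.16 to 93.2 CPM in the other 7 mice.

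Of the 16380 genes tested, 110 were DEGs at an unadjusted limma p under 0.005, the threshold of the study (0.672%). They comprised 59 increased (0.36%) and 51 decreased genes (0.311%). At an unadjusted p under 0.05, 1793 genes rose (10.9%) and 1650 fell (10.1%), together 3443 (21%). In the text, "rose" and "fell" refer to this second threshold and "DEG" to the first. None passed 5% FDR in limma (smallest adjusted p = 0.230) or in edgeR's quasi-likelihood test on recovered reads, and 14 passed it in DESeq2. Control and nPM mice did not overlap for 1116 genes (6.81%), 569 higher (3.47%) and 547 lower with nPM (3.34%), and for 106 of the 110 DEGs. The log2 changes of DEGs, on the scale of log2(CPM + 0.5), ranged from 0.39 to 1.35 in increased and from −1.52 to −0.44 in decreased genes. DEGs were expressed at lower levels than the genes tested, with a median of 6.48 CPM for increased and 3.53 CPM for decreased genes against 12.4 CPM for all genes tested, and 15 of them had fewer than 10 reads in some mouse. Without TMM scaling 46 DEGs were increased and 60 decreased, a reversal of the larger direction.

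The number of DEGs depended on single mice. It was 278, 46, 207 and 48 without control 52, 61, 63 or F6, and 296, 30, 29 and 65 without nPM mouse 55, 59, 67 or 70. In each of these fits all 110 DEGs kept their direction and an unadjusted p under 0.05, and 17 of them kept a p under 0.005 in every fit. Where groups do not overlap, as for 106 of the 110, leaving out mice can hardly turn the direction. That the DEGs kept it was thus largely set by the data that selected them. With the length slope as a covariate there were 101 DEGs (0.617%), of which 44 were increased (0.269%) and 57 decreased (0.348%), and they included 31 of the 110. Genes at p under 0.05 then numbered 1175 (7.17%), with 2.77% that rose. Without controls 61 and F6 there were 87 DEGs (0.522%), of which 16 were increased (0.0961%) and 71 decreased (0.426%), and they included 13 of the 110, with 810 genes at p under 0.05 (4.86%), of which 340 rose (2.04%). All 110 had p under 0.05 in the same direction in both of these fits. Like the p under 0.05 with single mice left out, this is not independent support, since the same mice selected the 110.

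Increased DEGs by the naming rule included genes of calcium and lipid signalling. In the following sentences the controls are given in the order 52, 61, 63 and F6 and the nPM mice in the order 55, 59, 67 and 70, as TMM-scaled CPM. Camkk1, a calcium and calmodulin-dependent kinase that activates other kinases of that family (chromosome 11 from 73019008 to 73042074, mm10), stood at 76.6, 60.3, 92.3 and 81.6 CPM in controls and at 109.5, 119, 125 and 111 CPM with nPM. Rasgrf2, a calcium-responsive exchange factor for Ras (chromosome 13 from 91880407 to 92131495), stood at 90.6, 68.5, 114 and 99.4 CPM in controls and at 135, 153, 158 and 140 CPM with nPM. For both genes every nPM mouse lay above every control. The log2 changes were 0.59 (standard error 0.136) for Camkk1 and 0.67 (standard error 0.155) for Rasgrf2, and without controls 61 and F6 they were 0.48 and 0.54. Pla2g4e, a cytosolic phospholipase A2 family member that makes precursors of endocannabinoid-like lipids (chromosome 2 from 120166412 to 120245336), rose from 5.05, 3.97, 6.22 and 3.51 CPM to 7.87, 8.91, 8.94 and 8.06 CPM. Its log2 change was 0.81 (standard error 0.174).

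Cpeb1, Pan3 and Fezf2 were also among the increased DEGs. Cpeb1, which binds the polyadenylation element of dendritic mRNAs and controls their translation (chromosome 7 from 81347026 to 81454759), stood at 34.0, 33.5, 41.3 and 43.3 CPM in controls and at 54.4, 58.6, 64.4 and 50.01 CPM with nPM. Its log2 change of 0.58 (standard error 0.128) was 0.52 with the length covariate and 0.60 without controls 61 and F6. Pan3, a subunit of a deadenylase that shortens poly(A) tails (chromosome 5 from 147430580 to 147548502), was among the tightest of the named genes, with controls at 19.1 to 21.1 CPM and nPM mice at 25.4 to 27.7 CPM. Fezf2, a transcription factor that specifies deep layer projection neurons (chromosome 14 from 12341892 to 12345866), stood at 12.5, 14.9, 15.7 and 13.3 CPM in controls and at 18.5, 20.8, 23.8 and 20.4 CPM with nPM. Its log2 change was 0.55 with all mice, 0.53 with the covariate and 0.57 without controls 61 and F6. Of the 8 deep layer markers tested, Fezf2 rose, Foxp2 (log2 change −0.50) and Hs3st4 (−0.30) fell, the other 5 did not pass p under 0.05, and the median over the list was −0.05.

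Col19a1, a collagen chain, rose from a mean of 17.5 ± 2.59 to 32.2 ± 7.72 CPM (SD, n = 4 each), a log2 change of 0.84. Tbc1d1, a Rab GTPase-activating protein that restrains glucose transporter traffic and is a substrate of AMPK, rose from 11.7 ± 0.318 to 16.1 ± 1.14 CPM with no overlap. C030023E24Rik, a noncoding transcript on the X chromosome, rose from 12.4 ± 0.967 to 18.8 ± 2.72 CPM. Erdr1 had the highest log2 change of the named genes, 1.04 (standard error 0.230), from 4.06 to 5.22 CPM in controls to 7.56 to 15.9 CPM with nPM. The table places it on the Y chromosome, where these females have no other reads among the genes checked, so its position is uncertain. Below 5 CPM the increased genes with the smallest p were Xirp2, an actin-binding protein of muscle, Nxf7, of an mRNA export factor family, and Spaca6, a sperm membrane protein. Xirp2 had at least 18 reads and Nxf7 as few as 3 reads in a mouse, and their log2 changes were 0.66 and 0.67. Each DEG named here and below had an adjusted p of 0.230 in limma.

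Among decreased DEGs were genes of redox repair and lipid storage. Msrb2, the mitochondrial methionine sulfoxide reductase that repairs oxidized methionine (chromosome 2 from 19371636 to 19394971), stood at 14.3, 17.7, 17.3 and 15.2 CPM in controls and at 11.8, 10.95, 9.90 and 10.7 CPM with nPM. It fell by 0.55 on the log2 scale (standard error 0.116), by 0.46 with the length covariate and by 0.51 without controls 61 and F6. Nqo2, a quinone reductase (chromosome 13 from 33964659 to 33988466), stood at 9.47, 12.8, 10.2 and 12.5 CPM in controls and at 7.94, 6.16, 7.45 and 7.47 CPM with nPM. Plin2, a coat protein of lipid droplets (chromosome 4 from 86656565 to 86670060), stood at 5.53, 6.07, 5.25 and 5.28 CPM in controls and at 3.42, 3.76, 3.36 and 3.83 CPM with nPM. Its log2 change of −0.56 (standard error 0.111) was −0.51 without controls 61 and F6. Mid1ip1, which promotes the assembly of acetyl-CoA carboxylase in fatty acid synthesis, fell from 116 ± 5.73 to 85.5 ± 7.51 CPM (SD, n = 4 each). The groups did not overlap for any of the 4 genes.

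Genes of glia also fell. Rgs10, a regulator of G protein signalling that is prominent in microglia, stood at 26.6, 38.7, 26.3 and 33.3 CPM in controls and at 23.6, 16.4, 16.4 and 19.5 CPM with nPM. Its log2 change was −0.70 with all mice and −0.47 without controls 61 and F6. Car2, the carbonic anhydrase of oligodendrocytes, had 165, 241, 170 and 197 CPM in controls and 138, 116, 131 and 138 CPM with nPM, and its log2 change moved from −0.55 to −0.34. Tmem176b, a membrane protein of antigen-presenting cells, and Pcdh11x, a protocadherin on the X chromosome, had log2 changes of −0.57 and −0.57. Dlx6os1, a noncoding RNA of the interneuron locus Dlx5 and Dlx6, had −0.54. Krt10, a keratin of the epidermis at 8.55 ± 1.12 CPM in controls and 5.22 ± 0.596 CPM with nPM, had −0.66 with all mice and −0.66 without controls 61 and F6. Ccdc18, a coiled-coil protein at 0.788 to 3.12 CPM, had −0.91 with all mice and −0.63 without those controls.

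Several further DEGs were singled out after their values were seen. Fabp7, the fatty acid binding protein of radial glia and astrocytes, had the lowest log2 change of the DEGs, −1.52, from 15.2, 44.3, 17.4 and 32.8 CPM in controls to 10.4, 5.76, 6.15 and 13.2 CPM with nPM. Without controls 61 and F6 it was −0.90. Synpr, a protein of synaptic vesicles, fell from 183 ± 31.6 to 108 ± 30.1 CPM, and Cd59a, which blocks the complement membrane attack complex, from 13.1 to 19.9 CPM in controls to 8.29 to 10.3 CPM with nPM. Robo3, a guidance receptor of commissural axons, had the highest log2 change of increased DEGs, 1.35, but its groups overlapped, with control 63 at 9.15 CPM and nPM mouse 55 at 9.01 CPM.

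**Figure D2:**
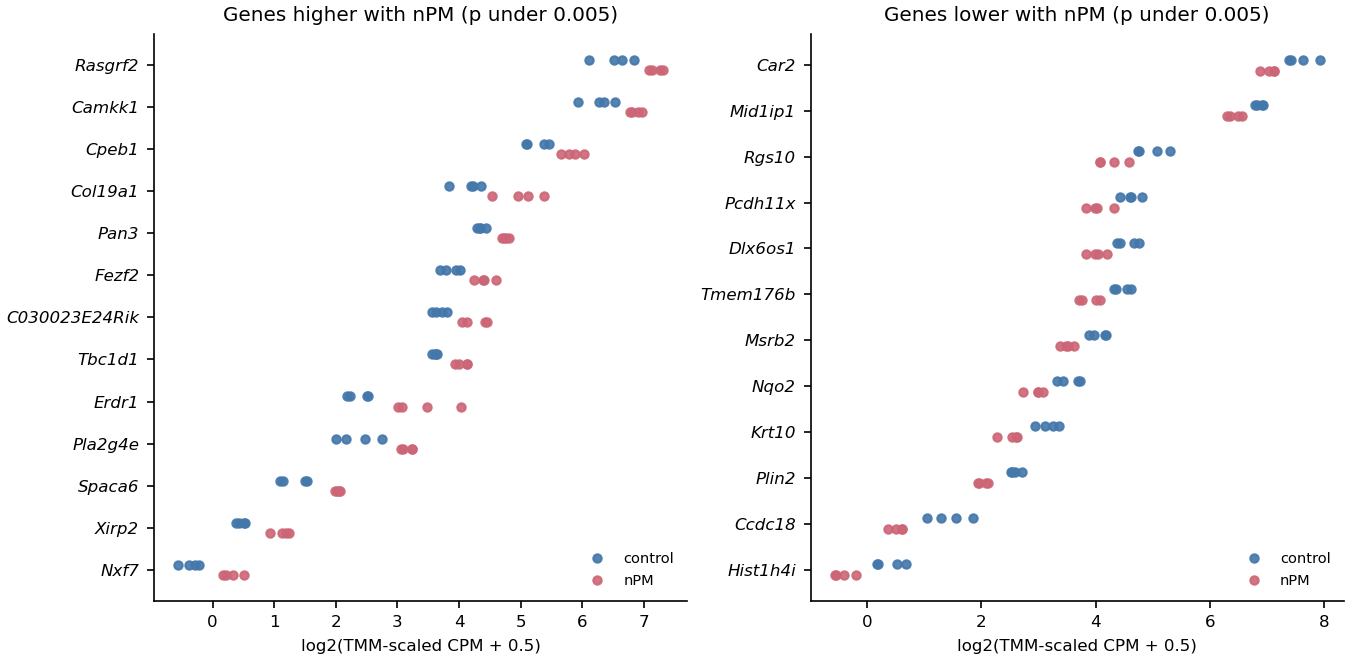
Levels of 25 DEGs named by rule in each mouse. The horizontal axis is log2(TMM-scaled CPM + 0.5), each point is a mouse (4 controls, 4 nPM), and levels are not per length, so genes are not to be compared with each other. Control and nPM points are separate for all 25 genes, as the rule required. Pan3 controls span 19.1 to 21.1 CPM, while Car2 controls span 165 to 241 CPM.

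Genes of the replication-dependent histones, whose short mRNAs end in a stem-loop in place of a poly(A) tail and supply chromatin in dividing cells, fell together. Of 49 tested, 29 fell (the background of fallen genes was 10.1%) and 0 rose, and 7 were DEGs. The groups did not overlap for 19 of the 49, against 6.81% of all genes tested. The median log2 change was −0.38, against −0.00 for all genes tested. With the length slope as a covariate 11 of the 49 fell (4.41% of all genes) and the median was −0.19, and without controls 61 and F6 13 fell (2.82%) and the median was −0.26. None of them rose in either fit. In APOE3 males the median was 0.01 over the 27 of these genes tested there, and in APOE4 females it was 0.00 over 41. Members share near-identical sequences and overlapping clusters, so reads of unique position may be split between them unevenly. The libraries came from an mRNA kit, and how well it captures transcripts without a poly(A) tail was not tested. Levels of these genes may therefore not follow the amounts of their mRNA.

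Individual histone genes had few reads. Hist1h2bg (chromosome 13 from 23571400 to 23571864) stood at 3.66, 6.56, 4.43 and 5.02 CPM in controls and at 2.69, 2.18, 2.22 and 3.05 CPM with nPM, a log2 change of −0.82 (standard error 0.184) on no fewer than 57 reads. Hist2h2aa1 (chromosome 3 from 96245497 to 96246053) stood at 2.39, 4.73, 3.04 and 3.77 CPM in controls and at 1.87, 1.68, 1.61 and 1.67 CPM with nPM, also −0.82. Hist1h4i (chromosome 13 from 22040960 to 22041363) stood at 0.637, 1.12, 0.643 and 0.943 CPM in controls and at 0.380, 0.179, 0.191 and 0.260 CPM with nPM, on as few as 4 reads. In each of the 3 genes all nPM mice lay below all controls, and control 61 was the highest mouse. The other 4 DEGs of the list were Hist1h2al (−0.71), Hist1h2bh (−0.87), Hist1h2be (−0.62) and Hist1h2bm (−0.55). The summed level of the 49 genes was 89.2, 155, 89.8 and 119 CPM in controls and 76.1, 58.9, 57.1 and 71.4 CPM with nPM.

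Promoter windows of histone genes carried motifs that are less common elsewhere. A window runs from 250 bases before to 50 bases after the RefSeq start (GRCm38.p6), and 43 of the 49 histone genes had one. On either strand TATAAA occurred in 24 of the 43 (55.81%) and CCAAT in 38 (88.37%), against 14.16% and 37.92% of all 27025 windows and 7.738% and 38.45% of the 12755 windows of genes tested. Of the 26 windows of histone genes that fell, TATAAA occurred in 15 (57.69%) and CCAAT in 24 (92.31%). A match is a description of letters and not a site or a cause. The windows of the 3 DEGs above are shown because that of Hist1h4i lacks CCAAT, which the other 2 windows have. Each gene had a log2 change of −0.82, a value that depends on the constant added to CPM before the log. At the low level of Hist1h4i its change was −1.41 with a constant of 0.1 CPM and −0.33 with a constant of 2 CPM. The shared value therefore does not show that the 3 genes fell equally. They are written from 5′ to 3′ along the gene, with capitals for TATAAA and for CCAAT on either strand (ATTGG where it lies on the other strand). Hist1h4i is on the minus strand at chr13:22041313-22041612, Hist2h2aa1 on the plus strand at chr3:96245247-96245546 and Hist1h2bg on the plus strand at chr13:23571150-23571449.
Hist1h4i: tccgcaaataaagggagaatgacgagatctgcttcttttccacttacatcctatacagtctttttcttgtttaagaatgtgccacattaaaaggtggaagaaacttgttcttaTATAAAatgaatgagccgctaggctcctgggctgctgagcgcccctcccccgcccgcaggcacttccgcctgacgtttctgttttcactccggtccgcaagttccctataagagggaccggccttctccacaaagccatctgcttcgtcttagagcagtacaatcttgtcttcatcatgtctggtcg
Hist2h2aa1: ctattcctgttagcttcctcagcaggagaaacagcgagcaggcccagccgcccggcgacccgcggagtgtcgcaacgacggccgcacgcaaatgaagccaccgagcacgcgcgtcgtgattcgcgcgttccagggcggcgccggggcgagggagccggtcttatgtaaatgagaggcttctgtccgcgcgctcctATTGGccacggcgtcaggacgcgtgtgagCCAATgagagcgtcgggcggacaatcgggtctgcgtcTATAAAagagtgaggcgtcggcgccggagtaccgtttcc
Hist1h2bg: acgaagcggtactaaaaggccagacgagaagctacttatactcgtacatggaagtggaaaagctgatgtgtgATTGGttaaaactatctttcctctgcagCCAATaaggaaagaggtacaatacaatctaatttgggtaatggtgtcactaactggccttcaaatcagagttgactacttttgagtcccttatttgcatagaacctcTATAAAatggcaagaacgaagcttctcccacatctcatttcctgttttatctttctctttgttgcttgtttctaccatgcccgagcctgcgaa
Hist1h4i had 1 TATAAA and 0 CCAAT, and the other 2 windows had 1 TATAAA and 2 CCAAT each.

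In the NRF2 pathway, Nfe2l2 and 15 of 36 effectors fell with all mice. Nfe2l2 itself (chromosome 2 from 75675513 to 75704664) stood at 15.9, 18.1, 15.9 and 18.4 CPM in controls and at 15.8, 12.1, 11.2 and 11.8 CPM with nPM, and fell by 0.42 on the log2 scale (standard error 0.134, limma adjusted p = 0.230). Every nPM mouse lay below every control, though nPM mouse 55 only just. The change was −0.24 with the length covariate and −0.31 without controls 61 and F6, and passed p under 0.05 in neither fit. Keap1, the inhibitor that marks NRF2 for breakdown, averaged 62.9 ± 5.68 CPM in controls against 63.6 ± 5.17 CPM in the exposed mice (SD, n = 4 each). Of the 11 regulators tested, which include the small Maf partners and the Bach repressors, 1 fell, Nfe2l2, and 1 rose. The related factor Nfe2l1 had 0.36 and did not pass p under 0.05.

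Of the 36 NRF2 effectors tested, 15 fell (10.1% of all genes fell) and 1 rose, with a median log2 change of −0.33. The fallen members included Msrb2, the only DEG of the list, and Nqo1, the quinone reductase often used as a readout of NRF2, at 4.26, 7.76, 4.11 and 5.73 CPM in controls and 4.04, 2.97, 2.75 and 3.16 CPM with nPM. They also included the peroxidases Gpx1 (log2 change −0.63) and Gpx4 (−0.88), which reduce hydrogen peroxide and lipid peroxides, the superoxide dismutases Sod1 (−0.57) and Sod2 (−0.24), the carbonyl reductase Cbr3 (−0.74), the microsomal transferase Mgst1 (−0.89) and the cystine transporter Slc7a11 (−0.33). Abcc1, an exporter of glutathione conjugates, rose by 0.86. The rate-limiting enzymes of glutathione and heme breakdown gave smaller values, 0.04 for Gclc, −0.15 for Gclm and −0.22 for Hmox1, none of which passed p under 0.05. The covariate left 5 effectors that fell (4.41% of all genes, median −0.10), and leaving out controls 61 and F6 left 2 (2.82% of all genes, median −0.18). The list holds short transcripts, with a median length of 2102.5 bases against 3282 for all genes tested. The median response of the list was −0.01 in APOE3 males and −0.11 in APOE4 females.

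The antioxidant response element, to which NRF2 binds with a small Maf, has the core TGACNNNGC. It occurred on either strand in 9 of the 30 effectors with a promoter window (30%), in 12.47% of all windows and in 14.42% of the windows of genes tested, and in 4 of the 14 that fell and had a window (28.57%). The 4 were Msrb2, Mgst1, Prdx1 and Sod1. The window of Msrb2, the effector DEG, lies on the plus strand at chr2:19371386-19371685 and is shown with the core in capitals, here on the other strand near the downstream end.
Msrb2: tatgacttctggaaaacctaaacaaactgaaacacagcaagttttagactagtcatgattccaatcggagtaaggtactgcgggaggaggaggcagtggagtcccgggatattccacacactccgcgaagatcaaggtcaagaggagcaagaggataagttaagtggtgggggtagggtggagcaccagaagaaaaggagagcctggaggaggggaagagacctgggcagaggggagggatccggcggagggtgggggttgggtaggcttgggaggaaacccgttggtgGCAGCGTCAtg
The element is known to act also from positions outside such windows, which were not searched.

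Few NFKB genes passed p under 0.05. Of 16 NFKB subunits and inhibitors tested, Rela and the kinase Ikbkb, which marks the inhibitors of NFKB for breakdown, rose and 0 fell, a share near the 10.9% of all genes that rose, with a median log2 change of 0.19. In the other fits none of the 16 passed. Rela (chromosome 19 from 5637490 to 5648131) stood at 9.47, 5.04, 9.22 and 5.43 CPM in controls and at 7.67, 12.9, 13.3 and 12.5 CPM with nPM, a log2 change of 0.65 (standard error 0.259). The groups overlapped, since nPM mouse 55 lay below controls 52 and 63, and without controls 61 and F6 the change was 0.28 and did not pass p under 0.05. Nfkb1 had 0.44 and did not pass either. Of 16 NFKB targets tested, of 22 in the table, 0 rose and 3 fell: Vcam1 (−0.51), the adhesion molecule of endothelium, Xiap (−0.44), an inhibitor of apoptosis, and the cytokine Il1a (−0.52). Over all genes 10.1% fell. The median of the targets was −0.06, and 2 fell with the covariate and 1 without controls 61 and F6. Il1b was low, at 0.588 ± 0.252 CPM in controls and 0.360 ± 0.137 CPM with nPM (SD, n = 4 each), and Il6, Nos2, Tnfsf11 and S100a9 lacked reads in some mouse and were not tested. Pparg, a nuclear receptor of lipid metabolism, rose from 2.37 ± 0.388 to 3.39 ± 0.599 CPM, with log2 changes of 0.44 with all mice and 0.53 without controls 61 and F6.

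Among genes of synapses, 11 of 21 vesicle release genes and 2 of 7 NMDA receptor subunits rose with all mice, calls that were nearly all lost in the other fits. Of 7 NMDA receptor subunits tested, Grin1 and Grin2a rose (10.9% of all genes rose), 0 fell, and the median log2 change was 0.80. Grin1, the obligatory subunit, stood at 144, 36.7, 141 and 60.4 CPM in controls and at 122, 234, 230 and 173 CPM with nPM. The nPM mouse 55 lay below controls 52 and 63, and controls 61 and F6 were the lowest of the 8 mice. The log2 change of Grin1 was 1.16 with all mice, 0.13 with the length covariate and 0.38 without controls 61 and F6, and it passed p under 0.05 only with all mice. The 7 subunits are long transcripts, with a median of 5431 bases.

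Of 21 genes of the vesicle release machinery 11 rose (10.9% of all genes rose) and 0 fell, with a median log2 change of 0.43. They included Slc17a7, the vesicular glutamate transporter of cortical neurons (0.85), the active zone scaffolds Bsn (1.36) and Pclo (0.43), the SNARE Stx1a (0.34) and the calcium sensor Syt1 (0.28). With the length covariate 1 rose and 1 fell, and without controls 61 and F6 none passed p under 0.05 (medians 0.07 and 0.18). Syt1 had 0.22 and 0.25 in these fits and passed p under 0.05 in neither, and its levels did not overlap, at 1166 to 1302 CPM in controls and 1403 to 1540 CPM with nPM. Of 18 subunits of voltage-gated calcium channels, Cacna1a, Cacna1b, Cacna1d and Cacna1g rose and 0 fell, and the median of 0.80 was −0.00 with the length covariate, where 0 rose and 1 fell, and 0.16 without controls 61 and F6, where none passed. Of 56 axon guidance genes 16 rose and 0 fell with all mice (median 0.45), 6 rose and 9 fell with the covariate (median −0.01), and 3 rose and 0 fell without controls 61 and F6 (median 0.11). Of 23 postsynaptic scaffold genes, Kalrn (0.57) and Adgrb1 (1.27) rose, no larger a share than the 10.9% of all genes (median 0.57). With the covariate 1 of the 23 rose and 1 fell (median −0.01), and 1 rose without those controls (median 0.07). Of 16 inhibitory synapse genes 3 fell and 0 rose (median −0.18), 3 fell and 1 rose with the covariate, and 2 fell without controls 61 and F6. Gad1, which makes GABA, was among the 3 that fell with all mice (−0.23).

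Of 19 genes of AMPK and mTOR signalling 8 rose (10.9% of all genes rose) and 0 fell, with a median of 0.47. In each of the other fits 2 rose and 0 fell (medians 0.09 with the covariate and 0.18 without controls 61 and F6). Besides Camkk1, Rictor, a scaffold of mTOR complex 2, rose in all 3 fits, with log2 changes of 0.47, 0.24 and 0.30 and levels of 40.3, 28.7, 34.0 and 28.9 CPM in controls and 41.4, 49.7, 47.8 and 42.9 CPM with nPM. Of 18 circadian clock genes 4 rose and 0 fell (median 0.35), and of 17 genes of SAPK/JNK signalling 4 rose and 0 fell (median 0.16). Of 24 chromatin remodelling genes 6 rose and 1 fell. With the covariate 0, 1 and 0 genes of these 3 lists rose and 1 of each fell, and without controls 61 and F6 none rose. Of 332 zinc finger genes 29 rose and 17 fell (median −0.00). Smarca4, the ATPase of the SWI/SNF chromatin remodelling complex, had 0.74 and did not pass p under 0.05. No immediate early gene of 16 passed p under 0.05 (median 0.34). Of 10 nuclear-retained noncoding RNAs 5 rose and 0 fell, with a median of 0.86, and 3 rose in each of the other fits. Malat1 had 333, 80.2, 273 and 133 CPM in controls and 315, 721, 721 and 477 CPM with nPM, and rose in all 3 fits (log2 changes 1.58, 0.51 with the covariate and 0.82 without controls 61 and F6).

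Genes of translation and oxidative phosphorylation fell with all mice, and the transcripts of those in the nuclear genome are short. The 13 genes of the mitochondrial genome were not matched to a length. Of 83 cytosolic ribosomal protein genes tested, 65 fell (10.1% of all genes fell) and 0 rose, with a median log2 change of −0.76 at a median length of 1049 bases. Of 76 nuclear genes of oxidative phosphorylation 44 fell and 0 rose (median −0.60, median length 1135 bases), and each of the 76 had a log2 change below 0. Of the 13 protein-coding genes of the mitochondrial genome 11 fell (median −0.74). ND3, a subunit of complex I, stood at 736, 2738, 898 and 1676 CPM in controls and at 987, 393, 411 and 581 CPM with nPM, a log2 change of −1.26. Controls 61 and F6 were the highest of the 8 mice, and nPM mouse 55 lay above controls 52 and 63. With the length covariate the medians of the 3 lists were −0.07, −0.04 and −0.24, and without controls 61 and F6 they were −0.29, −0.20 and −0.43. In the covariate fit 2 ribosomal protein genes, 1 nuclear and 1 mitochondrial gene of oxidative phosphorylation fell, and without controls 61 and F6 the numbers were 2, 0 and 2. Proteasome genes had a median of −0.39 (6 of 39 fell) and 0.02 with the covariate. In APOE4 females the medians of the ribosomal protein, nuclear and mitochondrial lists were −0.19, −0.11 and −0.06. There 15 of 82, 14 of 76 and 0 of 13 genes passed p under 0.05, against 5.61% of all genes. In APOE3 males the medians were −0.01, −0.02 and −0.03.

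**Figure D3:**
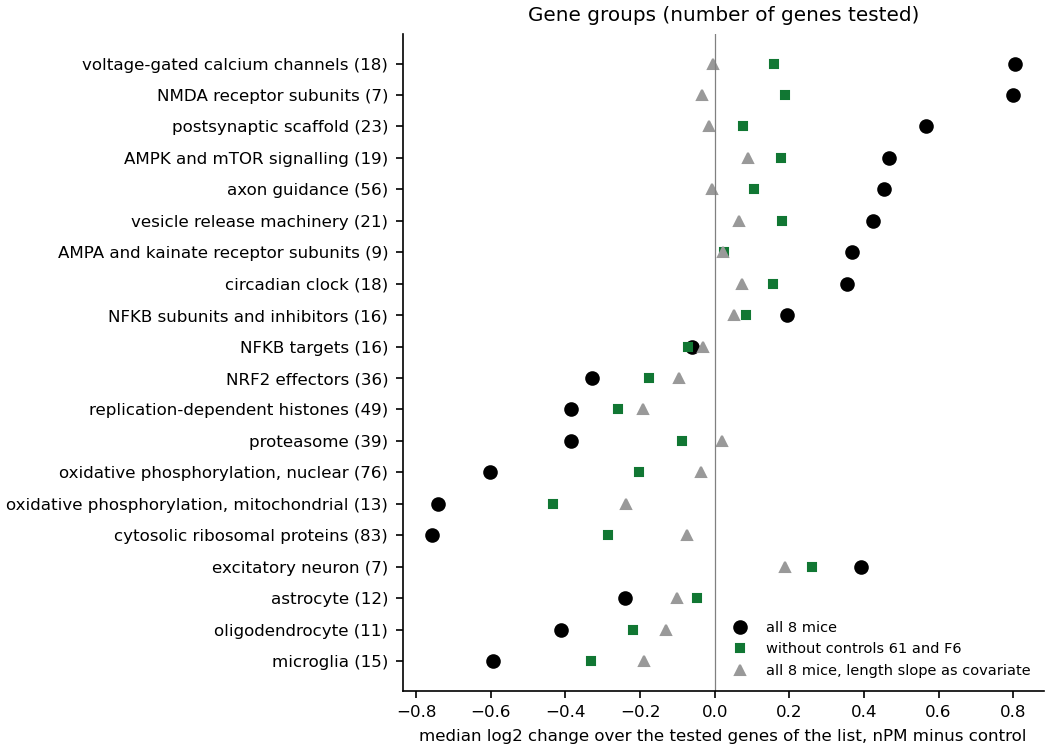
Median log2 change with nPM over the tested genes of 20 gene lists, with the number of genes in brackets. Circles are all 8 mice, squares leave out controls 61 and F6, and triangles add the length slope as a covariate. The medians of synaptic lists move from 0.80 (NMDA receptor subunits) to −0.03 with the covariate, and those of histones, mitochondrially encoded genes and microglia shrink from −0.38, −0.74 and −0.59 to −0.19, −0.24 and −0.19.

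Over all genes the response rose with transcript length. In the shortest decile of transcripts, from 80 to 1327 bases, the median log2 change was −0.33, with 436 genes that fell and 29 that rose. In the longest decile it was 0.38, with 417 genes that rose and 43 that fell. Spearman's rho between log2 change and length was 0.454 across 16196 genes, which share libraries and are not independent replicates. With the length covariate the medians of the deciles lay between −0.02 and 0.00, which its construction from these same levels largely set in advance. Without controls 61 and F6 they lay between −0.10 and 0.10 (rho 0.242). In APOE4 females they lay between −0.08 and 0.10 (rho 0.346 across 16358 genes) and in APOE3 males between −0.01 and 0.02 (rho 0.0978 across 16682 genes). The increased DEGs had a median length of 3980.5 bases and the decreased DEGs of 1806 bases, against 3282 for all genes tested. The part of transcript length in the response was not tested.

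**Figure D4:**
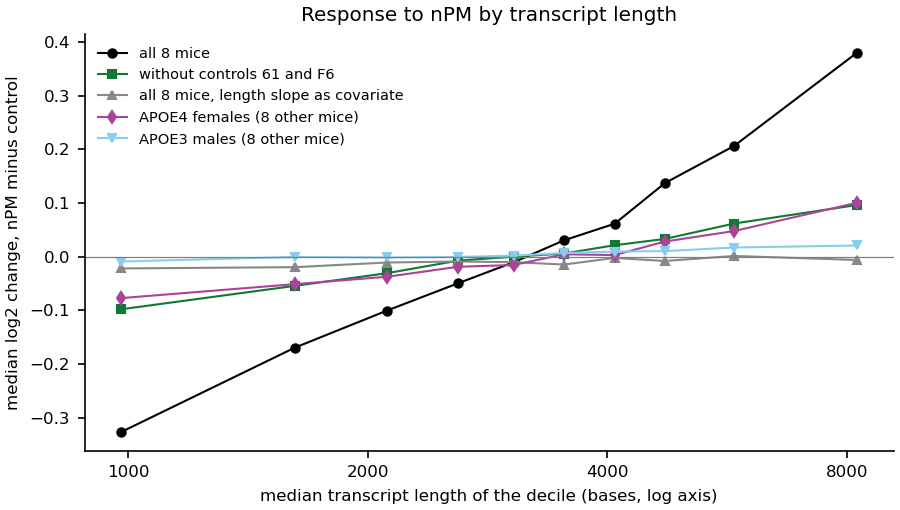
Median log2 change with nPM in deciles of transcript length (bases, log axis, plotted at each decile's median length). Circles are the 8 APOE3 females, squares leave out controls 61 and F6, triangles add the length slope as a covariate, and diamonds and inverted triangles are APOE4 females and APOE3 males. The line of the 8 APOE3 females climbs from −0.33 to 0.38, and that of APOE3 males stays between −0.01 and 0.02.

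Most microglial markers fell with all mice. Of 15 tested, 12 fell (10.1% of all genes fell) and 0 rose, with a median log2 change of −0.59. P2ry12, a purinergic receptor of resting microglia, stood at 63.8, 112, 60.3 and 81.8 CPM in controls and at 60.1, 37.9, 34.7 and 44.8 CPM with nPM, and Gpr34 at 26.2, 64.2, 29.6 and 43.5 CPM and at 29.2, 17.2, 14.4 and 16.9 CPM. In P2ry12 all nPM mice lay below all controls, by a small margin for nPM mouse 55, while in Gpr34 that mouse overlapped with controls 52 and 63. The other fallen markers included Tyrobp (−0.89), C1qa (−0.60), Ctss (−0.62) and Trem2 (−0.52). Cx3cr1, Tmem119 and Csf1r did not pass p under 0.05, and Csf1r, a receptor for growth factors of microglia, had a log2 change of 0.32. Under the length covariate 4 microglial markers fell (4.41% of all genes, median −0.19), and without controls 61 and F6 1 fell, P2ry12 (2.82% of all genes, median −0.33). The list has a median length of 2088 bases. Its median response was −0.27 in APOE4 females, where 0 of 15 passed p under 0.05, and −0.02 in APOE3 males.

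Oligodendrocyte markers fell for 6 of 11 (10.1% of all genes fell, median −0.41), among them the myelin surface protein gene Mog (−0.58) and the galactolipid enzyme Ugt8a (−0.67). Ugt8a stood at 54.3, 97.2, 57.0 and 74.0 CPM in controls and at 42.5, 41.1, 42.2 and 46.9 CPM with nPM, with no overlap, and fell in all 3 fits. With the covariate 3 of the 11 fell and without controls 61 and F6 1 fell (4.41% and 2.82% of all genes). None of 8 oligodendrocyte precursor markers passed with all mice, and 6 had log2 changes above 0 (median 0.11). Of 12 astrocyte markers 3 fell and 0 rose (median −0.24): the water channel Aqp4 (−0.58), S100b (−0.76) and the gap junction gene Gja1 (−0.33). Another 5 of the 12 had log2 changes above 0, up to 1.40, and in the other fits 1 fell and 1 rose with the covariate and none passed without controls 61 and F6. Of 7 excitatory neuron markers 3 rose (median 0.39), and 1 in each of the other fits. General neuron markers had a median of −0.05, interneuron markers −0.13 and endothelial markers 0.08, with 2, 0 and 0 that rose and 0, 1 and 0 that fell.

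The nPM response was then set beside that of other mice, none of which enter the comparison above. Of the 109 DEGs that could be tested in APOE3 males, 62 had a log2 change of the same direction there (56.9%), against 59.6% of all genes tested in both, and 1 of them had p under 0.05 in that direction. In APOE4 females 70 of 108 had the same direction (64.8%, against 65.5% of all genes) and 3 had p under 0.05. In B6 females, which were younger and exposed separately for 8 weeks to another nPM batch, it was 29 of 59 (49.2%, against 58.2%) with 2 at p under 0.05. None of the DEGs had p under 0.005 in any of the 3 groups (background 0.154%, 0.26% and 1.17%). In their own fits, genes at p under 0.05 made up 2.25% of 16889 genes in APOE3 males, 5.61% of 16545 in APOE4 females and 10.4% of 14726 in B6 females, against 21% here.

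Differences between responses were tested as contrasts over the 32 APOE-TR mice in 8 groups, on 15958 genes. The response of APOE3 females differed from that of APOE3 males at p under 0.005 for 818 genes (5.13%), and in 471 of them the response was the higher one in females. That balance turned without TMM scaling (372 higher and 450 lower), with quality weights (1884 and 1943) and with the length covariate (41 and 49). None passed 5% FDR, while 5373 had an unadjusted limma p under 0.05 (33.7%, smallest adjusted p = 0.0921). Without controls 61 and F6 the number was 96 and with the length covariate 90, and leaving out 1 APOE3 female gave 250 (without nPM mouse 67) to 3940 (without control 52). Genes with the smallest p were Grap, an adaptor of receptor kinase signalling, Msrb2 and Timp3, an inhibitor of matrix proteases, lower in the female response, and Slc27a2, a fatty acid transporter, and Nxf7, higher. Grap went from 4.34 ± 0.677 to 2.58 ± 0.327 CPM in females and from 2.89 ± 0.323 to 3.26 ± 0.137 CPM in males (SD, n = 4 each).

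Against APOE4 females 601 genes differed at p under 0.005 (3.77%), 332 of them higher in APOE3. The balance turned without TMM scaling (275 higher and 333 lower), with quality weights (1906 and 1944), with the length covariate (95 and 121) and without controls 61 and F6 (68 and 104). At 5% FDR 3 genes passed (0.0188%). These 3 had a lower response in APOE3 females, with log2 differences of −0.64 for Msrb2 (standard error 0.111, limma adjusted p = 0.0265), −0.97 for Krt10 (standard error 0.177, limma adjusted p = 0.0405) and −1.15 for Ccdc18 (standard error 0.196, limma adjusted p = 0.0265). In levels, Msrb2 went from 15.9 ± 1.63 to 10.6 ± 0.808 CPM in APOE3 females and from 10.2 ± 0.564 to 10.9 ± 0.723 CPM in APOE4 females (SD, n = 4 each). The APOE3 males had 10.03 ± 0.476 CPM without and 9.85 ± 0.715 CPM with exposure, so the APOE3 female controls had the highest mean of these 6 groups. With the length covariate the smallest adjusted p was 0.107 and without controls 61 and F6 0.177, so no gene then passed 5% FDR. None passed it without control 61, nPM mouse 59 or nPM mouse 67 either, and 3462 to 5246 genes passed it without control 52, control 63 or nPM mouse 55. Camkk1 and Rasgrf2 were among the genes with the smallest p in the other direction, with log2 differences of 0.64 and 0.72 (limma adjusted p = 0.0696 each). Camkk1 stood at 76.3 ± 12.8 CPM in APOE3 female controls and 114 ± 6.86 CPM with nPM, and at 115 ± 3.29 and 111 ± 11.9 CPM in APOE4 females, so here too the APOE3 female controls stood apart. The 8 groups share 1 estimate of the spread, which is smaller than that between the APOE3 females themselves.

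**Figure D5:**
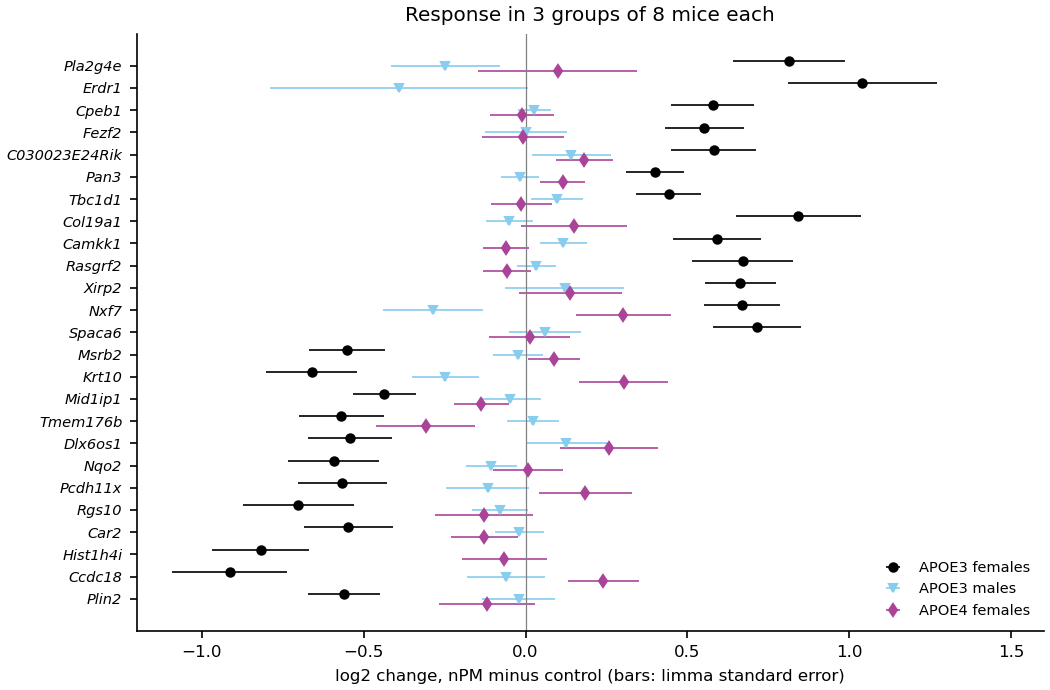
Log2 change with nPM of 25 named DEGs in 3 groups of 8 mice each, with bars for the limma standard error. Circles are APOE3 females, inverted triangles APOE3 males and diamonds APOE4 females. The circles reach at least 0.40 in increased genes and at most −0.44 in decreased genes, which were chosen on these values, whereas Krt10 has −0.25 in APOE3 males and 0.30 in APOE4 females.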

How the data were processed

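Cortex RNA was sequenced as single-end reads from a stranded mRNA library kit. Per the submitters' processing notes the reads were aligned with TopHat2 2.0.8b to mm10 (GRCm38) and quantified in Partek, and the study states that uniquely mapping reads were used with RefSeq genes. The strand setting of the counting is not given in the sources used here. The values the authors deposited are CPM per gene and mouse, in which genes without reads hold a small value that differs between columns. The columns of the 8 mice sum to 675220 to 880442 CPM, and those of the other 24 APOE-TR mice to 670445 to 699316 CPM. Every column of the table was matched to a group.

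Mice were grouped by the labels. A gene was tested where its value exceeded 1.5 times the column minimum in all 8 mice, and 4 entries with repeated symbols were left out. CPM were scaled by TMM (edgeR 4.0.16) and tested as log2(CPM + 0.5) with limma 3.58.1 in R 4.3.3, with Benjamini-Hochberg adjustment. Two-sided p-values come from moderated t-tests, which set a difference of means against the spread between mice, with variances shrunk across genes. Differences between responses were contrasts in a fit of all 8 APOE-TR groups. The design allowed for counts, but the values are CPM, so limma was used. Of low values, 96.6% to 97.0% were whole multiples of the column minimum (tolerance 0.1), which gave reads for edgeR's quasi-likelihood test and DESeq2 1.42.0 as alternatives. Levels are TMM-scaled CPM unless called deposited, and are not per length. Transcript lengths came from GENCODE vM21, which held 98.643% of the symbols, and promoters from RefSeq (GRCm38.p6). The fit was tested on simulated counts with 200 changed genes. It recovered all 200 at 5% FDR with log2 changes of 1 and of 1.5, and called 5 and 11 unchanged genes. The simulated noise was independent between genes, whereas in these mice a first component carried most of the variance. The simulation thus does not show how the fit performs with such a component.

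Named DEGs had groups that did not overlap and were, per direction, the 10 of lowest p at a mean of at least 5 CPM, and the 3 of lowest p below that level. Others are members of the lists with the smallest p, genes the study names, the 3 of lowest p per direction of a contrast, and label checks. Some genes under these rules are not reported here. Members and lists were chosen with earlier results of these data known. Alternatives were the scaling, pseudocount, filter, voom, quality weights, the length covariate and leaving out each mouse. Leaving out controls 61 and F6 together, and leaving mitochondrial genes out of the scaling, were chosen after seeing the data.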

Additional observations from a re-analysis of the deposited data

Results flagged for a closer look

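The nPM response of 3 genes differed between APOE3 and APOE4 females in a test of the difference itself (limma contrast, 5% FDR). The log2 difference was −1.15 for Ccdc18, −0.97 for Krt10 and −0.64 for Msrb2. With nPM, Ccdc18 went from 2.24 ± 0.671 to 0.925 ± 0.118 CPM in APOE3 females while APOE4 females started from 0.808 ± 0.0879 CPM (SD, n = 4 each). Krt10 went from 8.40 ± 1.10 to 5.11 ± 0.590 CPM in APOE3 females and from 4.99 ± 0.428 to 6.36 ± 1.28 CPM in APOE4 females. The limma adjusted p of each gene was 0.107 with the length covariate. No gene passed 5% FDR without control 61, nPM mouse 59 or nPM mouse 67, or without controls 61 and F6 together. The contrast shares 1 estimate of the spread over 8 groups, which is smaller than that between the APOE3 females themselves. Among 64 checks for a mouse far from the others of its group of 4, none exceeded Dixon's critical value. Such a check can miss 2 mice that stand apart together, as controls 61 and F6 did on the first principal component. It therefore does not show that no mouse was outlying. Control F6 also held 1416 CPM of choroid plexus markers, against 23.8 to 72.0 CPM in the other controls.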

How the results depend on the processing

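None of the 26 named DEGs changed direction under the alternatives run. For fits with mice left out, the rule that their groups do not overlap largely fixed this in advance. The larger direction of DEGs turned without TMM (46 increased and 60 decreased). Medians of several lists changed sign with the length covariate (NMDA receptors −0.03, axon guidance −0.01, postsynaptic scaffold −0.01, proteasome 0.02). That covariate was computed from these same levels, so moves toward 0 were in part set in advance. DEGs in APOE3 females (110) numbered 673 with sample quality weights, 463 with DESeq2, 5011 with the spread shared over 8 groups, and 29 to 296 with 1 mouse left out. At 5% FDR (0 genes) DESeq2 gave 14 and the shared spread 7274. The difference from APOE3 males (818 genes at p under 0.005) gave 3827 with quality weights, 90 with the length covariate, 96 without controls 61 and F6, and 250 to 3940 with 1 mouse left out. At 5% FDR (0) it gave 5221 with quality weights and 0 to 5960 with 1 mouse left out. The difference from APOE4 females (601) gave 3850, 216 and 172 in the same 3 settings and 212 to 3271 with 1 mouse left out. At 5% FDR (3) it gave 5 without TMM, 1 without a filter, 5341 with quality weights, 0 with the covariate, 0 without controls 61 and F6, and 0 to 5246 with 1 mouse left out. Of 1175 listed genes, 352 passed p under 0.05, and 88 with the covariate, 54 without controls 61 and F6 and 73 to 632 with 1 mouse left out. Of 145 cell type markers 38 passed, 22 without controls 61 and F6 and 13 to 48 with 1 mouse left out. Of the 26 named DEGs, 10 kept p under 0.005 without controls 61 and F6 and 8 to 24 with 1 mouse left out. The causes were not tested. Single named genes kept direction and side of the threshold in 290 of their refits and lost the threshold in 100. No paired analysis was possible because each mouse was in a single group and no label pairs mice between groups. Genes with few reads, 2297 with fewer than 10 in some mouse, limit what low levels can show.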
